A study of Mus musculus with 24 samples.

Results

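Potassium channel genes were followed across 8 groups of cultured mouse neurons. The members were all genes whose single gene symbol on the array began with Kcn, each read from its probe set with the highest mean over all 24 arrays. This gave 84 genes of the 18193 named on the array, and 67 of them were among the 14215 genes bright enough to be tested, which required at least 3 arrays above the 40th percentile of their array. The cells were embryonic cortical neurons grown without serum, and every group, controls included, came from Il1rap-/- mice. Il1rap encodes the IL-1 receptor accessory protein AcP and its neuronal isoform AcPb, so the cells had neither of their own. The neurons were made to express AcP and AcPb together (AcP+AcPb), AcPb, AcP, or CD25, the IL-2 receptor alpha chain, which is no part of the IL-1 receptor. Each of these 4 receptor arms was stimulated for 4 h, with IL-1b (10 ng/ml) or with a control, and each of the 8 groups had 3 arrays. The study asked how AcP and AcPb shape the response of neurons to IL-1b. The sources used here do not give how the receptors were introduced, and the labels do not tie the 3 arrays of a group to separate cultures, so the p-values rest on the variation among these arrays, part or all of which may be technical.

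Potassium channels let potassium ions leave or enter the cell and thereby set the resting potential and end the action potential. Voltage-gated alpha subunits form the pore in groups, and modifier alpha subunits make no current alone but join them. M-type channels give a slow current that holds back repetitive firing. Calcium- and sodium-activated channels carry the potential that follows a spike, inward rectifiers and leak channels hold the resting level, and auxiliary subunits such as the KChIP (Kcnip) and beta (Kcnab, Kcnmb) proteins set how fast a pore opens, closes and reaches the membrane. The 84 genes fell by symbol into 13 voltage-gated alpha subunits, 9 modifiers, 3 M-type genes, 6 ether-a-go-go type genes, 8 calcium- or sodium-activated genes, 15 inward rectifiers, 12 leak channels and 18 auxiliary and other genes, of which 13, 8, 2, 6, 7, 10, 9 and 12 were tested in that order. Of the 84, 3 were non-coding RNAs (Kcnq1ot1, Kcnmb4os1 and Kcnmb4os2). The other 17 members missed the brightness limit, and 10 of the 84 had all 8 group means below 0. At such levels low expression and no expression look the same.

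The median intensity of an array was 55.1 to 66.4, and the mean correlation of replicate arrays ran from 0.976 in AcP controls to 0.986 in AcP IL-1b arrays. The AcP controls spread most, with a median SD per gene of 0.165 log2 units, against 0.0896 to 0.116 in the other 7 groups. Arrays carried 1 of 3 codes whose meaning the labels do not give, and the AcP+AcPb arrays shared no code with the other arms, so this code and a difference of AcP+AcPb from the other arms cannot be told apart. Within that arm, controls 1 and 2 had a code of their own and control 3 shared one with the IL-1b arrays, so its response to IL-1b is also largely tied to the code. The chemokine gene Cxcl10 was read as 1 marker of IL-1b action, and its lack of change in an arm does not show that IL-1b had no effect there. It rose to 1997.5, 2246 and 3225 with IL-1b in AcP+AcPb neurons, against 24.3, 56.4 and 82.3 in controls, and to 2348, 2831 and 2356 in AcP neurons, against -2.38, 13.7 and 29.2 in controls (limma, adjusted p = 1.47e-08 and 4.52e-10). The controls are too near 0 for a fold. Its change with IL-1b was not called in AcPb neurons (0.36, adjusted p = 0.716) or CD25 neurons (-0.04, adjusted p = 0.987). CD25 controls averaged 199 ± 26.5 (SD, n = 3), and the controls of each other arm were called lower. Il1rap itself lay between 100.2 and 143 on all 24 arrays. The sources used here do not give where its probes lie relative to the deleted or the introduced sequence, so it checks no label. Bulk arrays cannot tell fewer cells of a type from less RNA per cell. Neuron markers were bright in every group (8 genes, group means of their sum 32999 to 36935). Astrocyte markers were bright in every group too (8 genes, 18501 to 20864), and oligodendrocyte markers summed to group means of 4213 to 6098 (6 genes). The values of an arm are thus those of a culture that also held glial RNA. Microglia markers summed to group means of 192 to 584, with 2 or 3 of the 7 at a mean below 0 in each group.

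IL-1b for 4 h moved no tested potassium channel gene past the threshold in any arm. A gene was called here at a Benjamini-Hochberg adjusted p under 0.05 over all 14215 genes in limma, and changes are differences of log2(value + 16), a scale that makes changes of dim genes look smaller than they are. The share of all genes called was 0.457% in AcP+AcPb, 0.00703% in AcPb, 0.542% in AcP and 0% in CD25 neurons, and 0 of the 67 members was called in each. At an unadjusted p under 0.05 there were 4, 7, 5 and 6 members in that order, against 11.1%, 11%, 8.79% and 6.04% of all genes. The median change of the members was -0.05, -0.02, -0.02 and 0.06, beside 0.005, -0.004, 0.003 and 0.008 for all genes, and the AcP median turned to 0.04 when array medians were scaled alike, which moved that of all genes to 0.07. The 95% confidence interval of the change lay within 1 log2 unit of 0 for 62, 63, 62 and 61 members, and within 0.5 units for 44, 42, 50 and 42. A change of more than 0.5 units was thus not excluded for the other members. Smaller changes, such as many of the arm differences below, are not judged by these counts.

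The smallest p in AcP+AcPb neurons belonged to Kcnc2, a pore subunit of fast-spiking interneurons. Its intensities were 340.2, 400.0 and 364 with IL-1b, against 481, 432 and 438 in controls. The groups did not overlap, as for 18.2% of all genes in that arm, the change was -0.28 ± 0.092, and the adjusted p was 0.235. In AcPb neurons it was Kcnab1, the beta subunit that speeds inactivation of Kv1 channels, at 184, 186 and 168 with IL-1b against 159, 159 and 152 in controls (0.18 ± 0.062, adjusted p = 0.303). In CD25 neurons it was Kcnip4, a KChIP of Kv4 channels, at 292, 304 and 330.5 against 379, 378 and 359 (-0.26 ± 0.071, adjusted p = 0.809). These are values of members that were not called.

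In the AcP arm, a call depended on the probe set. Kcnq1ot1, the long non-coding RNA of the imprinted Kcnq1 locus, read 48.7, 17.9 and 31.8 with IL-1b, against 67.1, 93.7 and 61.5 in AcP controls. Its change was -0.92 ± 0.28 (95% interval -1.51 to -0.33, adjusted p = 0.245). Another of its probe sets gave -0.76 ± 0.14 and passed when tested singly (adjusted p = 0.0142), and one more gave -1.545 ± 0.45 (adjusted p = 0.229). The change on the probe set used was -0.55 ± 0.28 in CD25 neurons, which have no accessory chain, and it was not called there (adjusted p = 0.844). Among the 3 largest changes of each arm, called or not, were also Kcns1 at 0.48 ± 0.33, Kcnn4 at 0.34 ± 0.78 and Kcns3 at -0.34 ± 0.54 in AcP+AcPb neurons. In AcPb neurons they were Kcnc4 at -1.10 ± 0.59, Kcnn4 at 1.00 ± 0.78 and Kcnk4 at -0.43 ± 0.28. In AcP neurons Kcns3 at -0.83 ± 0.54 and Kcnn1 at 0.51 ± 0.43 joined Kcnq1ot1, and in CD25 neurons Kcnn4 at -0.61 ± 0.78 and Kcnn1 at 0.56 ± 0.43 did. Kcnn4 lay below 0 on 15 of the 24 arrays, all AcP+AcPb and AcPb controls among them, so its changes are set by the floor of 0 and give no fold. All of these are dim genes with wide errors, and their adjusted p ran from 0.513 to 0.919.

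The difference between 2 arms' responses was called for 0 of 67 members in each of 3 tests, where 0.00703% of all genes were called for AcP+AcPb minus AcP, 0.26% for AcPb minus AcP and 0.246% for AcP minus CD25. At an unadjusted p under 0.05 there were 2, 2 and 3 members, against 5.3%, 8.34% and 9.07% of all genes. Scaling array medians alike moved the median of all genes to -0.125 in AcPb minus AcP, which sets the scale of any shift there. Kcnf1, a modifier subunit of Kv2 channels, depended on 1 array. AcP IL-1b arrays read 482, 477 and 368, against 262, 301 and 464 in AcP controls, so that AcP control 3 lay among the stimulated arrays. Without AcP control 3, Kcnf1 was called in the AcP response (0.62, adjusted p = 0.0386) and in AcP minus CD25 (0.845, adjusted p = 0.0339), and all genes called in the AcP response numbered 191 in place of 77.

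More members were called between CD25 and the other arms than between stimuli, and the same held over all genes. Of all genes, 18.7%, 7.62% and 15.5% were called against CD25 unstimulated for AcP+AcPb, AcPb and AcP, and at most 0.542% in an IL-1b response. Over all 8 groups, 22 of the 67 members varied (limma F-test over 7 contrasts, adjusted p under 0.05), or 5 of 13 voltage-gated alpha subunits, 2 of 8 modifiers, 1 of 2 M-type genes, 1 of 6 ether-a-go-go genes, 4 of 7 calcium- or sodium-activated genes, 1 of 10 inward rectifiers, 3 of 9 leak channels and 5 of 12 auxiliary genes. The share over all genes was 24.6%. This F-test does not separate arm from stimulus.

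**Figure D1:**
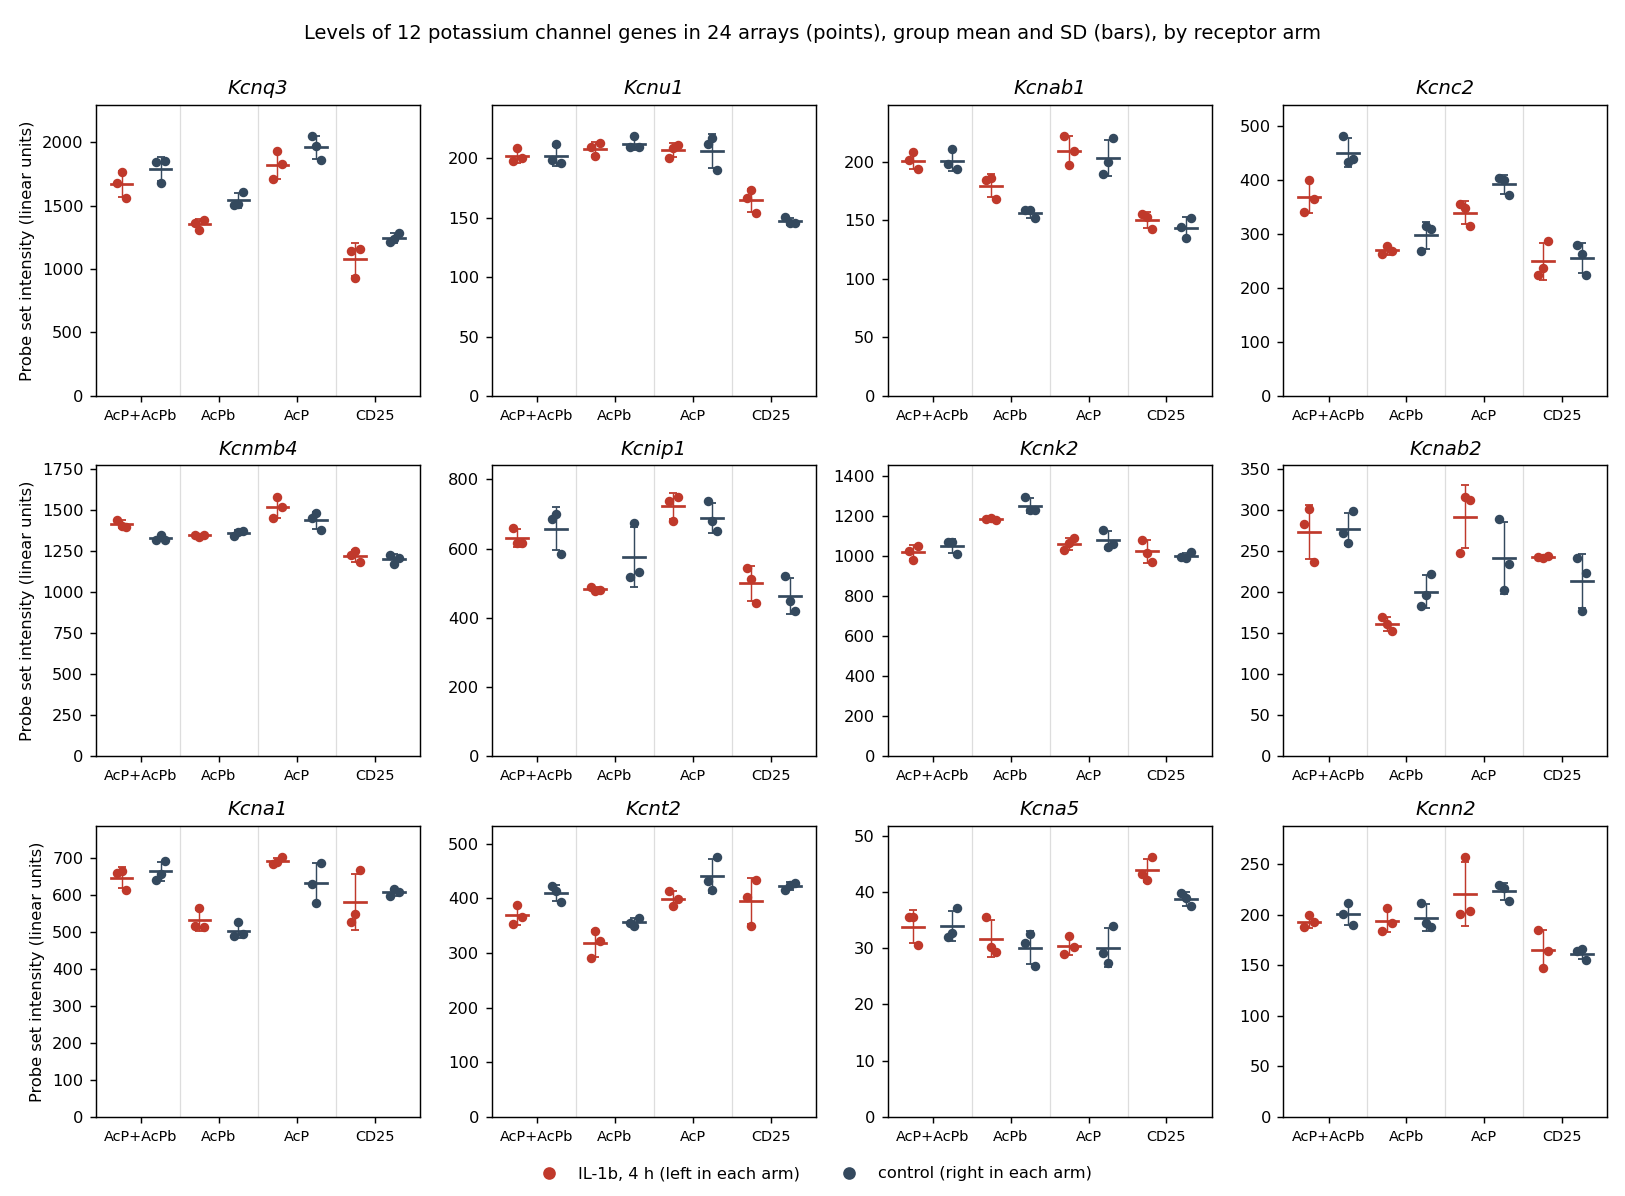
Intensity units per array of the 12 potassium channel genes with the smallest F-test p, a linear axis per gene, with IL-1b arrays left of control arrays in each arm, points for the 3 arrays of a group, a horizontal bar for their mean and a vertical bar for the SD. In the panels of Kcnq3 and Kcnu1 all CD25 arrays lie below all arrays of the other 3 arms, and in that of Kcna5 all CD25 arrays lie above them.

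In unstimulated neurons, members called against CD25 were mostly higher in the arms with an accessory chain. With AcP+AcPb, 17 members were higher and 0 lower (25.4% of 67), where 6.81% of all genes were higher and 11.9% lower. With AcPb, 4 were higher and 3 lower, where 2.36% and 5.26% of all genes were. With AcP, 12 were higher and 3 lower, where 6.86% and 8.68% of all genes were. The share of all genes called in either direction was 18.7%, 7.62% and 15.5%. The median change of the members was 0.165, 0.11 and 0.17, beside -0.02, 0.001 and 0.01 over all genes, and it remained above 0 with array medians scaled alike (0.11, 0.10 and 0.14, beside -0.07, -0.005 and -0.02 over all genes). These 3 comparisons share the CD25 controls, so they are not 3 independent looks. Of the 67 tested members, 36, 29 and 27 had arrays that did not overlap between the groups, where 40.2%, 32.7% and 28.1% of all genes had. Every called member was among them, but a call already selects for such genes. The split of the AcPb calls depended on scaling, with 7 higher and 1 lower after quantile normalization and 2 higher and 0 lower with array medians scaled alike. Calls with AcP+AcPb fell to 9 without CD25 control 3 and to 10 without AcP+AcPb control 2, and calls with AcPb fell to 2 without CD25 control 2, 4 without CD25 control 3, 4 without AcPb control 1 and 3 without AcPb control 3.

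With IL-1b, on arrays that the unstimulated comparisons do not use, 10 members were higher and 2 lower in AcP+AcPb than in CD25 neurons, where 4.47% and 8.34% of all genes were (12.8% in all). With AcPb 4 were higher and 3 lower, where 0.837% and 2.78% of all genes were (3.62% in all). With AcP 11 were higher and 1 lower, where 5.3% and 6.18% of all genes were (11.5% in all). Array medians scaled alike gave 4 higher and 2 lower with AcP+AcPb and 1 higher and 3 lower with AcPb. The median change of the members was 0.09, 0.02 and 0.07, beside -0.02, -0.02 and -0.006 over all genes. Scaling array medians alike turned the AcPb value to -0.04 and moved that of all genes to -0.08. Counts fell to 7 without CD25 IL-1b array 2 and to 6 without AcP+AcPb IL-1b array 3 in the first comparison. With AcPb 3 calls were left without array 2 and 2 without array 3, whether the array left out was a CD25 or an AcPb one stimulated with IL-1b.

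**Figure D2:**
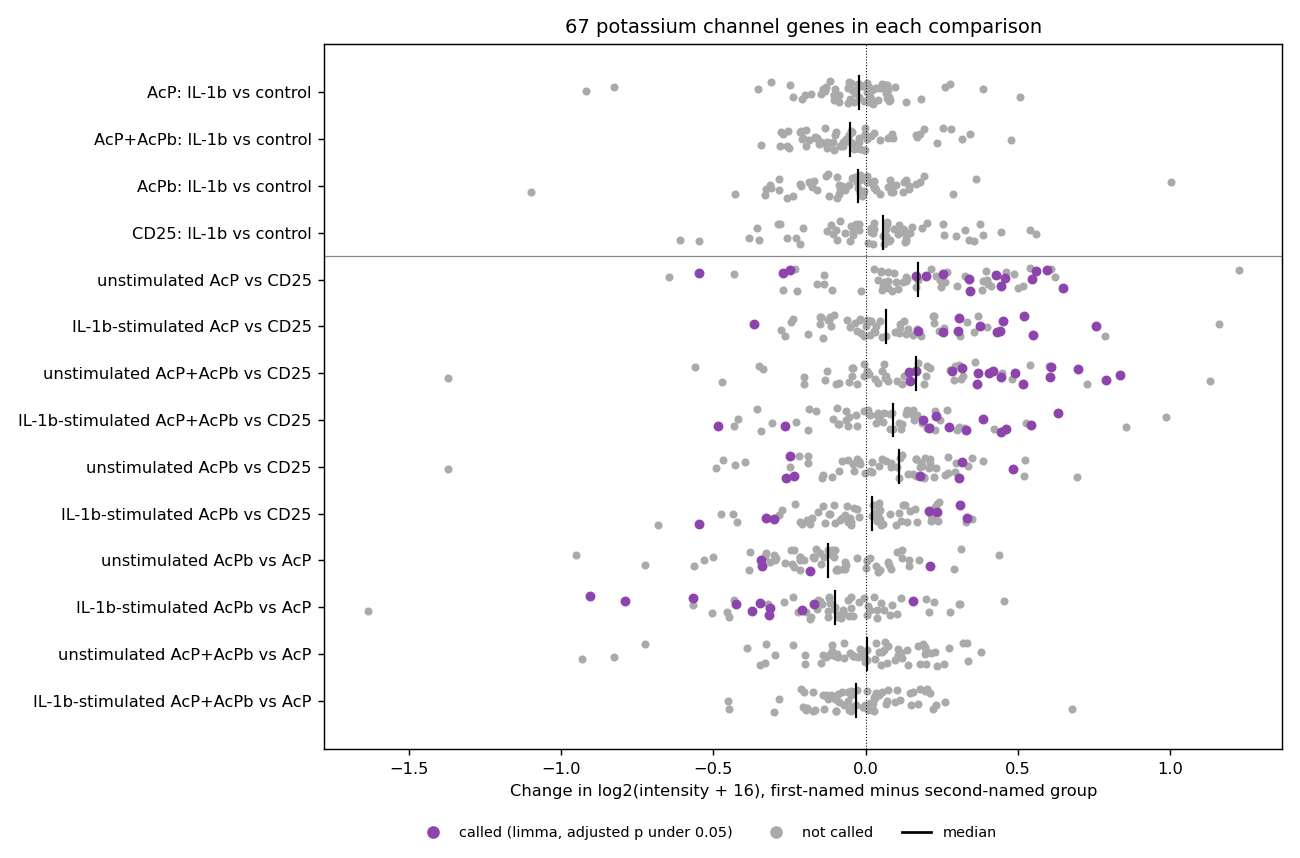
Log2 change of the 67 tested potassium channel genes in 14 comparisons, 1 point per gene, with purple points for genes called at an adjusted p under 0.05, grey points for the others and a line at the median. No point is purple in the 4 IL-1b responses, and the purple points of AcP+AcPb and AcP against CD25 lie mostly above 0.

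Members called in a comparison of unstimulated arms were often called again with IL-1b. For AcP+AcPb against CD25, 8 members were called in both sets of arrays, which is 47.1% of the unstimulated and 66.7% of the IL-1b calls (39.7% and 58.1% over all genes). For AcPb there were 5, 71.4% of each (29.9% and 63% over all genes). For AcP there were 9, 60% and 75% (45.7% and 61.8% over all genes). All of these had the same sign in both. The 2 sets share the estimate of the spread but no array. Only Kcnab1, Kcnc2, Kcnd2, Kcnip1, Kcnmb4, Kcnq3 and Kcnu1, 7 members of 67, were called higher than in CD25 neurons in all 4 of these comparisons with AcP+AcPb and AcP, against 1.53% of all genes. Under each stimulus the AcP+AcPb and AcP comparisons share the CD25 arrays. In AcP+AcPb with IL-1b, Kcnip1 lost its call in 7 of 19 alternative settings, among them 5 of the 6 that left out 1 array. Kcnd2 lost it there in 7 of 19, among them 4 of those 6.

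**Figure D3:**
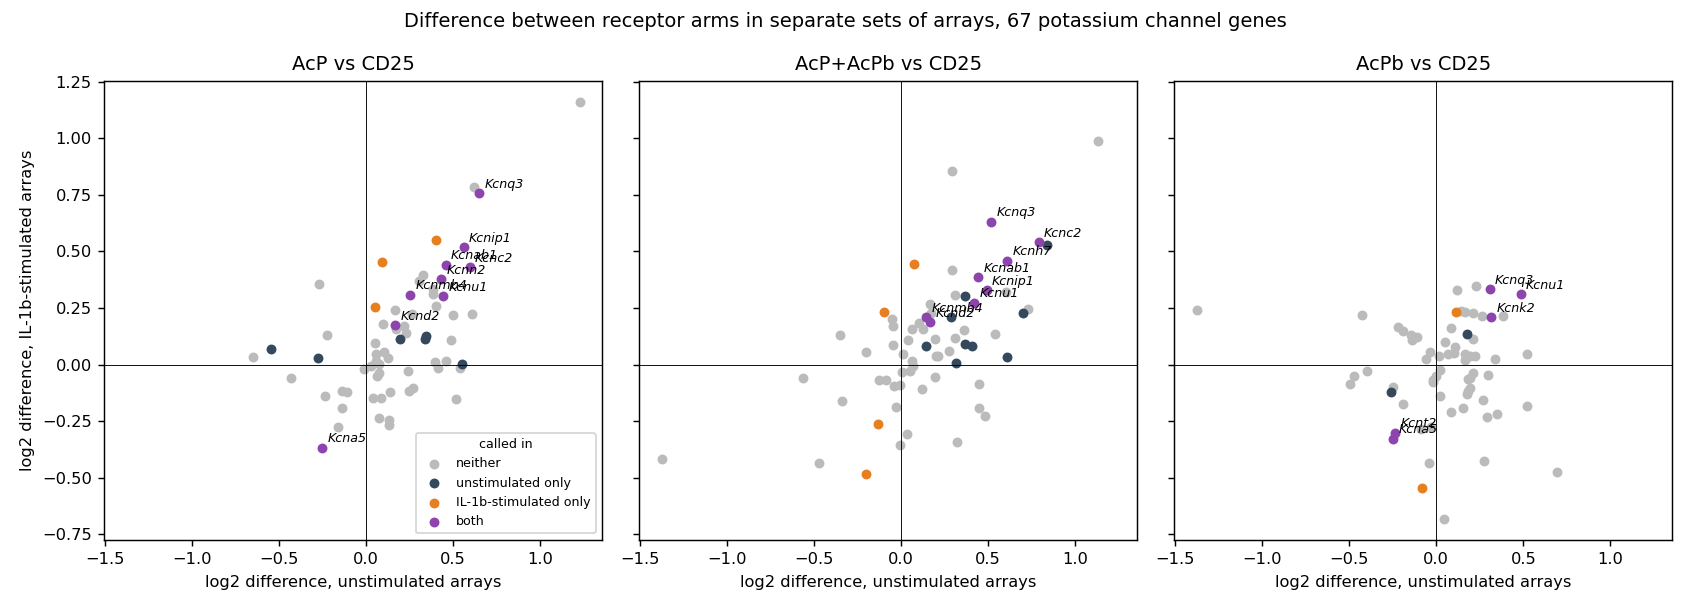
Log2 change against CD25 of the 67 tested potassium channel genes in unstimulated arrays (horizontal axis) and in IL-1b arrays (vertical axis) for AcP, AcP+AcPb and AcPb, 1 point per gene, coloured by the set of arrays in which it was called and named where called in both. The named genes lie in the upper right or, for Kcna5 and Kcnt2, in the lower left of their panels.

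Of those 7 genes, Kcnd2 and Kcnmb4 have a single listed start in the RefSeq promoter table (GRCm38.p6), and so has Kcna5, which was lower than in CD25 neurons in 5 of the 6 comparisons with that arm. The 150 bases before the start are shown, on the strand of the gene, because these are the members with 1 start that moved together or against the rest. The windows are chr6:21215196-21215345 on the plus strand for Kcnd2, chr10:116473524-116473673 on the minus strand for Kcnmb4 and chr6:126535556-126535705 on the minus strand for Kcna5. Capitals mark a GC box, GGGCGG or CCGCCC.
Kcnd2: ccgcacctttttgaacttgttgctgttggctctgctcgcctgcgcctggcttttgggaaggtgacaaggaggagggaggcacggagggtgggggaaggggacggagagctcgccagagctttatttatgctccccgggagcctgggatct
Kcnmb4: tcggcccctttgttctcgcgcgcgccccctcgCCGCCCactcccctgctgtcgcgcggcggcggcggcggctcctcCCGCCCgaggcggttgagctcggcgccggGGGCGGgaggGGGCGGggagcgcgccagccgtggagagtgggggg
Kcna5: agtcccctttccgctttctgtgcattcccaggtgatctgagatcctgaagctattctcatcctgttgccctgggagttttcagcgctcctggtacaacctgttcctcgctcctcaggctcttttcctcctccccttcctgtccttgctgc
The Kcnmb4 window held 4 GC boxes and 25 CG pairs (82% G or C), the Kcnd2 window 0 and 7 (60.7%), and the Kcna5 window 0 and 3 (54.7%). A GC box stood in 28.6% of the 32851 windows of the table and in 34 of the 89 windows of the 64 members that have one, and the median window held 4 CG pairs. None of the 3 windows held TGACG or CGTCA, the core of a cAMP response element (13.3% of windows). None held TATAAA, the letters of a TATA box, on either strand (7.57% of windows). The motifs were searched on both strands and do not overlap each other. The windows of these genes thus had no searched motif in common.

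Among M-type genes, Kcnq3 had the smallest F-test p of all members (adjusted p = 1.21e-06). It encodes a subunit of the M current, which quietens neurons between spikes. In controls it read 1842, 1679 and 1851 in AcP+AcPb, 1506, 1512 and 1612 in AcPb, 2049, 1971 and 1865 in AcP, and 1212, 1238 and 1285 in CD25 neurons. With IL-1b it read 1682, 1768 and 1562 in AcP+AcPb, 1361, 1308 and 1389.9 in AcPb, 1709, 1931 and 1831 in AcP, and 1142, 929 and 1157 in CD25 neurons. CD25 arrays were lowest under both stimuli, AcPb arrays came next, and the AcP+AcPb and AcP arrays, which overlapped with IL-1b, were highest.

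Unstimulated Kcnq3 was higher than in CD25 neurons by 0.52 ± 0.075 log2 units with AcP+AcPb (1.43-fold, adjusted p = 0.00012), 0.31 ± 0.075 with AcPb (adjusted p = 0.0171) and 0.65 ± 0.075 with AcP (1.57-fold, adjusted p = 1.1e-05). With IL-1b the values were 0.63 ± 0.075 (adjusted p = 3.05e-05), 0.33 ± 0.075 (adjusted p = 0.0171) and 0.76 ± 0.075 (1.69-fold, adjusted p = 4.3e-06). AcPb lay below AcP by 0.34 ± 0.075 unstimulated (adjusted p = 0.0348), and with IL-1b the change of AcPb against AcP was -0.425 ± 0.075 (adjusted p = 0.00197). The unstimulated call of AcPb against AcP was lost in 9 of 18 alternative settings. A second Kcnq3 probe set gave 0.66, 0.26 and 0.54 unstimulated and 0.57, 0.13 and 0.61 with IL-1b against CD25, of which the IL-1b value of AcPb was not called (adjusted p = 0.274). IL-1b itself changed Kcnq3 by -0.10 in AcP+AcPb, -0.19 in AcPb, -0.105 in AcP and -0.21 in CD25 neurons, none of which was called. Its M-current partner Kcnq5 was called in no comparison, at 0.10 ± 0.08, -0.04 ± 0.08 and 0.10 ± 0.08 against CD25 unstimulated. Kcnq5 means ran from 628 ± 45.4 in CD25 IL-1b arrays to 733 ± 49.9 in AcP+AcPb controls (SD, n = 3 each), and Kcnq1, known from heart and epithelia, lay below 0 on average and was not tested.

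Among voltage-gated alpha subunits, 4 of 13 were higher and 0 lower with AcP+AcPb, 0 higher and 2 lower with AcPb, and 3 higher and 1 lower with AcP, against CD25 without IL-1b. Over all genes 18.7%, 7.62% and 15.5% were called in these comparisons. The classes are small, and none was tested as a set. Kcnc2 (F-test adjusted p = 1.19e-05) led the voltage-gated alpha subunits. In controls it read 481, 432 and 438 in AcP+AcPb, 268, 314 and 309 in AcPb, 403, 399 and 372 in AcP, and 278, 262 and 224 in CD25 neurons. With IL-1b it read 340.2, 400.0 and 364 in AcP+AcPb, 263, 278 and 267 in AcPb, 356, 347 and 315 in AcP, and 223, 237 and 287 in CD25 neurons. AcPb and CD25 arrays overlapped under both stimuli, and every AcP+AcPb and AcP array lay above both of those arms under the same stimulus. The Kcnc2 change against CD25 was 0.79 ± 0.092 with AcP+AcPb (1.73-fold, adjusted p = 1.71e-05), 0.21 ± 0.092 with AcPb (adjusted p = 0.187) and 0.595 ± 0.092 with AcP (1.51-fold, adjusted p = 0.000218). With IL-1b the values were 0.54 ± 0.092 (adjusted p = 0.000806), 0.115 ± 0.092 (adjusted p = 0.599) and 0.43 ± 0.092 (adjusted p = 0.00478). The related Kcnc1, also of fast-spiking cells, was called in none of them and reached 0.17 ± 0.057 with AcP unstimulated (adjusted p = 0.0515).

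Kv4 channels carry the A current of dendrites, and Kcnd2 is their main pore in many cortical neurons. Kcnd2 read 1342, 1298 and 1395 in AcP+AcPb, 1252, 1180.5 and 1296 in AcPb, 1291, 1366 and 1380.0 in AcP, and 1140.2, 1249 and 1204 in CD25 controls. Its changes were small: 0.165 ± 0.052 with AcP+AcPb, 0.05 ± 0.052 with AcPb and 0.17 ± 0.052 with AcP unstimulated (adjusted p = 0.033, 0.612 and 0.0372), and 0.19 ± 0.052, 0.10 ± 0.052 and 0.17 ± 0.052 with IL-1b (adjusted p = 0.0231, 0.357 and 0.0373). Kcnd1, a further Kv4 pore, was higher in unstimulated AcP+AcPb (0.41 ± 0.10, adjusted p = 0.00931) and AcP neurons (0.34 ± 0.10, adjusted p = 0.0285) and was called in no comparison with IL-1b. Kcnd3 went the other way in AcP+AcPb neurons with IL-1b, at 850.1, 703 and 732, against 1066, 1034 and 1105 in CD25 neurons with IL-1b (-0.48 ± 0.091, adjusted p = 0.00175). Without IL-1b that Kcnd3 change was -0.20 ± 0.091 (adjusted p = 0.129). Its dimmer probe sets gave 0.61 and 0.30 with IL-1b, uncalled and of the opposite sign, and the mean of its probe sets gave 0.11, so the direction depends on the probe set.

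The KChIP subunits that bind Kv4 did not move as a block. Kcnip1, found in interneurons among others, was higher in both arms with AcP. It read 686, 700.4 and 586 in AcP+AcPb, 518, 674 and 532 in AcPb, 737, 679 and 652 in AcP, and 520.3, 449 and 420.5 in CD25 controls. The IL-1b arrays read 659, 615 and 617 in AcP+AcPb, 488, 476 and 481 in AcPb, 737, 680.0 and 749.9 in AcP, and 543, 513 and 444 in CD25 neurons. The AcPb arrays overlapped both the AcP and the CD25 arrays in controls and lay within the CD25 range with IL-1b. Against CD25 the Kcnip1 change was 0.49 ± 0.10, 0.30 ± 0.10 and 0.56 ± 0.10 unstimulated (adjusted p = 0.00225, 0.0804 and 0.000762), and 0.33 ± 0.10, -0.05 ± 0.10 and 0.52 ± 0.10 with IL-1b (adjusted p = 0.0376, 0.873 and 0.00191), for AcP+AcPb, AcPb and AcP. A further probe set gave 0.60, 0.33 and 0.62 unstimulated and 0.67, 0.26 and 0.705 with IL-1b. A dim one gave 0.40, 0.08 and 0.02 unstimulated and -0.008, 0.26 and -0.49 with IL-1b, none of them called. With the mean of its 4 probe sets, the IL-1b change of AcP was 0.185 and not called (adjusted p = 0.132).

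Kcnip2 and Kcnip3 were called in no comparison, with changes against CD25 of -0.19 to 0.40 and 0.23 to 0.42. Kcnip4 was lower in unstimulated AcP (-0.27 ± 0.071, adjusted p = 0.0132) and higher in AcP+AcPb neurons with IL-1b (0.23 ± 0.071, adjusted p = 0.0387). In CD25 neurons its IL-1b and control arrays, given above, did not overlap, as for 13.7% of all genes in that arm. The transmembrane partners of Kv4 are not Kcn genes. Dpp6 was higher in unstimulated AcP+AcPb (0.27 ± 0.046, adjusted p = 0.000553), AcPb (0.17 ± 0.046, adjusted p = 0.0275) and AcP neurons (0.325 ± 0.046, adjusted p = 7.7e-05), and Dpp10 with IL-1b in AcP+AcPb (0.34 ± 0.10, adjusted p = 0.0351) and AcP neurons (0.39 ± 0.10, adjusted p = 0.019).

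**Figure D4:**
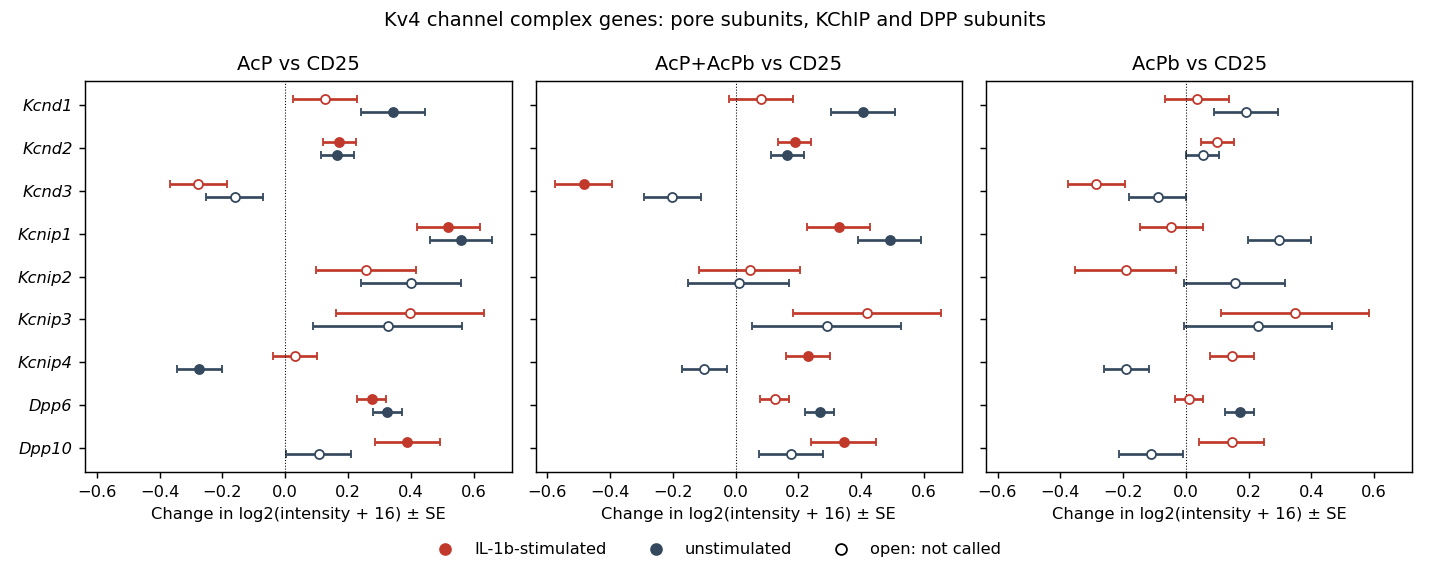
Log2 change against CD25 of the Kv4 pore genes Kcnd1 to Kcnd3, the KChIP genes Kcnip1 to Kcnip4 and the partners Dpp6 and Dpp10, for AcP, AcP+AcPb and AcPb, without and with IL-1b, with bars of 1 standard error and open points for changes not called. Kcnip1 and Dpp6 lie above 0 with AcP+AcPb and AcP under both stimuli, and Kcnd3 lies below 0, at -0.48 with AcP+AcPb and IL-1b.

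Kv1 channels sit along axons. Kcna1, a Kv1 pore whose loss causes episodic ataxia and seizures, was low in unstimulated AcPb neurons. It read 642, 658 and 693 in AcP+AcPb, 489.7, 527 and 496 in AcPb, 631, 578 and 687 in AcP, and 598, 616 and 608 in CD25 controls, so all AcPb arrays lay below all others. The unstimulated change was -0.26 ± 0.074 for AcPb against CD25 (adjusted p = 0.0381) and -0.31 ± 0.074 for AcPb against AcP (adjusted p = 0.052). The call against CD25 was lost whichever of the 6 arrays compared was left out. With IL-1b, Kcna1 read 660.4, 666 and 615 in AcP+AcPb, 516, 564 and 515 in AcPb, 685, 691 and 703 in AcP, and 528, 549.5 and 667 in CD25 neurons. There AcPb against AcP gave -0.37 ± 0.074 (adjusted p = 0.0043) and AcP against CD25 gave 0.25 ± 0.074 (adjusted p = 0.0332). Among the alternative settings these changes shrank to as little as -0.17 and 0.06, and the second call was lost in 8 of 18. The AcPb arrays overlapped the CD25 arrays with IL-1b, and that Kcna1 change was not called. The inactivating pore Kcna4 was higher with IL-1b in AcP+AcPb (0.44 ± 0.14, adjusted p = 0.0406) and AcP neurons (0.45 ± 0.14, adjusted p = 0.0398). These Kcna4 calls were lost in 10 of 19 and 9 of 18 alternative settings. Kcna6 was higher in unstimulated AcP+AcPb neurons (0.32 ± 0.11, adjusted p = 0.046), and Kcna2 was called nowhere, at 0.31 ± 0.12, -0.06 ± 0.12 and 0.24 ± 0.12 unstimulated.

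Kcna5, known best as a cardiac channel, was dim and lower than in CD25 neurons. It read 32.0, 32.8 and 37.1 in AcP+AcPb, 30.9, 32.5 and 26.9 in AcPb, 29.1, 27.3 and 34.0 in AcP, and 39.8, 39.0 and 37.5 in CD25 controls. The IL-1b arrays read 35.6, 35.5 and 30.5 in AcP+AcPb, 35.5, 30.2 and 29.4 in AcPb, 28.9, 32.1 and 30.2 in AcP, and 43.2, 42.1 and 46.2 in CD25 neurons. Every CD25 array lay above every array of the other arms. The unstimulated Kcna5 change was -0.13 ± 0.068 (adjusted p = 0.176), -0.25 ± 0.068 (adjusted p = 0.0305) and -0.25 ± 0.068 (adjusted p = 0.0176), and the IL-1b change was -0.26 ± 0.068 (adjusted p = 0.0152), -0.33 ± 0.068 (adjusted p = 0.00866) and -0.37 ± 0.068 (adjusted p = 0.00139), for AcP+AcPb, AcPb and AcP.

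The Kv1 beta subunits differed from each other. Kcnab1 (F-test adjusted p = 1.1e-05) read 199, 211 and 194 in AcP+AcPb, 159, 159 and 152 in AcPb, 189.6, 200.2 and 220.2 in AcP, and 144, 135 and 152 in CD25 controls. IL-1b arrays of Kcnab1 read 201, 208 and 194 in AcP+AcPb, 184, 186 and 168 in AcPb, 222, 197 and 209.6 in AcP, and 155, 153 and 142 in CD25 neurons. The AcPb arrays lay between the AcP and the CD25 arrays with IL-1b and overlapped the highest CD25 array without it. Against CD25 the Kcnab1 change was 0.44 ± 0.062, 0.11 ± 0.062 and 0.46 ± 0.062 unstimulated (adjusted p = 8.16e-05, 0.308 and 5.34e-05) and 0.39 ± 0.062, 0.23 ± 0.062 and 0.44 ± 0.062 with IL-1b (adjusted p = 0.000488, 0.0414 and 0.000127). Kcnab2, a beta subunit that also carries Kv1 channels to the axon, was low in AcPb neurons with IL-1b, at 170.2, 161 and 153, against 248, 317 and 313 in AcP and 243, 242 and 245 in CD25 neurons with IL-1b. AcP+AcPb neurons read 283, 302 and 237. The Kcnab2 change of AcPb was -0.79 ± 0.13 against AcP (adjusted p = 0.000952) and -0.55 ± 0.13 against CD25 (adjusted p = 0.0192). Without IL-1b it was -0.24 ± 0.13 and -0.08 ± 0.13, with neither called.

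Calcium- and sodium-activated genes gave 3 higher members of 7 with AcP+AcPb, 1 higher and 1 lower with AcPb, and 2 higher with AcP, against CD25 without IL-1b. The share of all genes called was 18.7%, 7.62% and 15.5%. Kcnu1, a pH-sensitive relative of the BK pore known from sperm, separated CD25 from the other 3 arms (F-test adjusted p = 7.64e-06). It read 199, 212 and 196 in AcP+AcPb, 209, 219 and 209.5 in AcPb, 212, 217 and 189.9 in AcP, and 151, 145 and 146 in CD25 controls. The Kcnu1 values with IL-1b were 198, 209 and 200.2 in AcP+AcPb, 209, 202 and 213 in AcPb, 200.2, 209 and 211 in AcP, and 166, 174 and 154 in CD25 neurons. The Kcnu1 change was 0.42 ± 0.053, 0.485 ± 0.053 and 0.44 ± 0.053 unstimulated (adjusted p = 3.04e-05, 1.17e-05 and 1.36e-05) and 0.27 ± 0.053, 0.31 ± 0.053 and 0.30 ± 0.053 with IL-1b (adjusted p = 0.00213, 0.00176 and 0.00083), for AcP+AcPb, AcPb and AcP. AcPb and AcP differed by 0.04 ± 0.053 unstimulated and 0.008 ± 0.053 with IL-1b.

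Kcnn2, an SK channel of the afterhyperpolarization, was higher in unstimulated AcP+AcPb (0.285 ± 0.085, adjusted p = 0.0256) and AcP neurons (0.43 ± 0.085, adjusted p = 0.00186) and, with IL-1b, in AcP neurons (0.38 ± 0.085, adjusted p = 0.00667). Its controls read 200.3, 211 and 189.8 in AcP+AcPb, 212, 192 and 188 in AcPb, 229.5, 226 and 214 in AcP, and 164, 166 and 156 in CD25 neurons. Kcnt2, a sodium-activated channel, was lower in AcPb neurons, at 354, 349.9 and 365 against 416, 424 and 428 in CD25 controls (-0.24 ± 0.071, adjusted p = 0.0483). With IL-1b the Kcnt2 arrays read 290.2, 340.1 and 322 in AcPb, 413, 386 and 399 in AcP, and 403, 350.2 and 433 in CD25 neurons (-0.32 ± 0.071 against AcP, adjusted p = 0.00884, and -0.30 ± 0.071 against CD25, adjusted p = 0.0218). Its relative Kcnt1 was higher in unstimulated AcP+AcPb neurons (0.37 ± 0.10, adjusted p = 0.0154).

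The BK channel was represented by its pore Kcnma1, which was called nowhere (0.20 ± 0.099, -0.001 ± 0.099 and 0.215 ± 0.099 unstimulated), and by Kcnmb4, its neuronal beta subunit. Kcnmb4 read 1319.8, 1346 and 1318 in AcP+AcPb, 1344, 1367 and 1374 in AcPb, 1453, 1479.5 and 1378 in AcP, and 1227, 1169.5 and 1208 in CD25 controls. Its IL-1b arrays read 1442, 1405 and 1395 in AcP+AcPb, 1347, 1336 and 1350.2 in AcPb, 1451, 1581 and 1516 in AcP, and 1229, 1253 and 1182 in CD25 neurons. CD25 arrays were lowest throughout. The Kcnmb4 change was 0.14 ± 0.042, 0.18 ± 0.042 and 0.255 ± 0.042 unstimulated (adjusted p = 0.0234, 0.0124 and 0.000365) and 0.21 ± 0.042, 0.14 ± 0.042 and 0.31 ± 0.042 with IL-1b (adjusted p = 0.00293, 0.0794 and 9.02e-05).

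Leak channels gave 0 calls of 9 with AcP+AcPb and AcP and 1 with AcPb, against CD25 unstimulated, where 18.7%, 15.5% and 7.62% of all genes were called. Kcnk2, the mechano- and lipid-sensitive TREK channel, was higher in AcPb neurons. It read 1071, 1070.1 and 1011 in AcP+AcPb, 1296, 1231 and 1229 in AcPb, 1129.7, 1047 and 1061 in AcP, and 996, 990.3 and 1019.5 in CD25 controls. Its IL-1b arrays read 1024, 981 and 1050.4 in AcP+AcPb, 1185, 1189 and 1179 in AcPb, 1030.0, 1067 and 1088 in AcP, and 1082, 1017 and 971 in CD25 neurons. Under both stimuli the AcPb arrays lay above all others. The Kcnk2 change of AcPb was 0.32 ± 0.048 against CD25 (adjusted p = 0.000329) and 0.21 ± 0.048 against AcP (adjusted p = 0.0402) unstimulated, and 0.21 ± 0.048 (adjusted p = 0.018) and 0.16 ± 0.048 (adjusted p = 0.0483) with IL-1b. Against AcP the call was lost in 10 of 18 alternative settings unstimulated and 12 of 18 with IL-1b. Leaving out 1 array lost it in 5 of 6 and 6 of 6 fits. AcP+AcPb neurons, which also express AcPb, gave 0.07 ± 0.048 and -0.006 ± 0.048 against CD25, uncalled. The related Kcnk10 was called nowhere, Kcnk4 (TRAAK) was lower in AcPb than in AcP neurons with IL-1b (-0.905 ± 0.28, adjusted p = 0.0478; -0.43, adjusted p = 0.181, without AcPb IL-1b array 1, which read 3.17 against 35.7 and 36.2 on the others), and Kcnk12 was higher in AcP than in CD25 neurons with IL-1b (0.55 ± 0.16, adjusted p = 0.0318). Kcnk1 did not pass the F-test (adjusted p = 0.632), with means of 1065 to 1165.

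Of 10 inward rectifiers, 3 were higher with AcP+AcPb, 0 with AcPb and 2 with AcP, against CD25 unstimulated, and none was lower. All genes were called at 18.7%, 7.62% and 15.5% there. Kcnj10, the potassium-clearing channel of astrocytes, read 2158, 2034 and 2106 in AcP+AcPb, 1924, 1921 and 1901 in AcPb, 2171, 2203 and 2154 in AcP, and 1913, 1830.3 and 1947 in CD25 controls. The Kcnj10 change was 0.145 ± 0.043 with AcP+AcPb (adjusted p = 0.0247) and 0.20 ± 0.043 with AcP (adjusted p = 0.00423), and AcPb lay 0.18 ± 0.043 below AcP (adjusted p = 0.0499). The call of AcPb against AcP was lost in 14 of 18 alternative settings, among them all 6 that left out 1 array. With IL-1b no comparison of Kcnj10 was called. Its partner Kcnj16 was called nowhere. Kcnj12, a strong rectifier, was higher in unstimulated AcP+AcPb (0.61 ± 0.17, adjusted p = 0.017) and AcP neurons (0.55 ± 0.17, adjusted p = 0.0335), and the dim Kcnj13 in AcP+AcPb neurons (0.84 ± 0.23, adjusted p = 0.0155). Kcnj11, the pore of the ATP-sensitive channel, spread widely, from 979 to 1860.3 within AcP controls, and was not called.

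The remaining classes gave few calls. Among ether-a-go-go genes, Kcnh7 was higher in AcP+AcPb neurons without (0.61 ± 0.145, adjusted p = 0.00691) and with IL-1b (0.46 ± 0.145, adjusted p = 0.0445), and Kcnh2 was higher in unstimulated AcP neurons (0.34 ± 0.084, adjusted p = 0.00981). The Kcnh7 call with IL-1b was lost in 10 of 18 alternative settings, among them all 6 that left out 1 array. Kcnh1 and Kcnh3 were called nowhere. Among modifiers, Kcnf1 was lower in unstimulated AcP neurons (-0.55 ± 0.165, adjusted p = 0.0316), at 262, 301 and 464 against 506, 501 and 472 in CD25 controls. That Kcnf1 call was lost in 8 of 18 alternative settings, among them 5 of the 6 that left out 1 array. Kcnv1 was higher in unstimulated AcP+AcPb neurons (0.37 ± 0.093, adjusted p = 0.0105). The auxiliary Kcne4 was higher there too (0.70 ± 0.18, adjusted p = 0.0129). Kcnv1 was lower in AcPb than in AcP neurons with IL-1b (-0.35 ± 0.093, adjusted p = 0.0258).

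AcPb and AcP were then set against each other. Unstimulated, 1 member was higher and 3 lower with AcPb (5.97% of 67, against 0.971% of all genes), namely Kcnk2 above and Kcnab1, Kcnq3 and Kcnj10 below, and none of the 4 calls was left with array medians scaled alike. With IL-1b, 1 was higher and 10 lower (16.4%), where 3.43% of all genes were higher and 5.77% lower (9.19% in all). The 10 were Kcna1, Kcnab1, Kcnab2, Kcnc2, Kcnip1, Kcnk4, Kcnmb4, Kcnq3, Kcnt2 and Kcnv1, so auxiliary subunits made up 4. With the mean of a gene's probe sets Kcnip1 stood at -0.07 there and was not called (adjusted p = 0.664). The median change of the members was -0.12 unstimulated and -0.10 with IL-1b, beside -0.01 over all genes in both, and array medians scaled alike moved the medians with IL-1b to -0.18 and -0.10. Kcnab1, Kcnk2 and Kcnq3 were called under both stimuli, which is 75% of the unstimulated and 27.3% of the IL-1b calls (72.5% and 7.65% over all genes). The Kcnab1 call with IL-1b was lost in 11 of 18 alternative settings, among them all 6 that left out 1 array. The unstimulated Kcnq3 call was lost in 9 of 18, among them 5 of those 6, and its IL-1b call in 0 of 18. No member's response to IL-1b was called as different between AcPb and AcP (smallest adjusted p = 0.390, Kcnab2). The unstimulated count fell to 2 without AcP control 1 or AcP control 2 and to 1 without any of the AcPb controls, and the IL-1b count fell to 7 without AcP IL-1b array 1, to 6 without AcP IL-1b array 2 or 3 and, of the stimulated AcPb arrays, to 5 without array 1 and 7 without array 2.

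AcP+AcPb against AcP called 0 of 67 members without IL-1b (0.239% of all genes) and 0 with IL-1b (0.0633%), with smallest adjusted p of 0.144 and 0.238. At an unadjusted p under 0.05 there were 9 and 5 members, against 11.5% and 12.2% of all genes. Of the genes above, Kcnq3 changed by -0.13 ± 0.075 and -0.125 ± 0.075, Kcnc2 by 0.195 ± 0.092 and 0.11 ± 0.092, Kcnab1 by -0.01 ± 0.062 and -0.06 ± 0.062 and Kcnk2 by -0.04 ± 0.048 and -0.06 ± 0.048, without and with IL-1b. A p that misses the threshold does not show that the arms are alike.

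Some called genes had further probe sets (8 of 17, 2 of 7 and 7 of 15 genes called in unstimulated AcP+AcPb, AcPb and AcP against CD25). Of their 14, 4 and 11 further probe sets in that order, 2, 1 and 2 were also called with the same sign, 11, 3 and 7 had the same sign uncalled, and 1, 0 and 2 had the opposite sign, none of them called. With IL-1b, 3 of 11, 1 of 2 and 2 of 10 had the opposite sign against CD25, and 3 of 9 in AcPb against AcP, again none of them called.

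Some markers of dividing progenitors, glia, vascular cells, interneurons and excitatory neurons differed between the arms, and their part in the channel differences was not tested. Over all genes, 18.7%, 7.62% and 15.5% were called against CD25 unstimulated for AcP+AcPb, AcPb and AcP. Of 7 progenitor markers, 1 was higher and 4 lower in unstimulated AcP+AcPb, 1 higher and 2 lower in AcPb, and 1 higher and 3 lower in AcP than in CD25 neurons. Their summed intensity was 2730 to 3042, 3342 to 3535 and 3030.1 to 3333 in those controls, against 4184 to 4518 in CD25 controls, and with IL-1b it was 2906 to 3078.5, 3627 to 3735.5 and 2714 to 2980, against 3798 to 4411. Top2a fell by 1.56 ± 0.13, 0.49 ± 0.13 and 1.01 ± 0.13 (adjusted p = 4.36e-07, 0.0262 and 2.73e-05). Hes5 went the other way, with means of 297.1, 259.5 and 346.3 in those controls against 142.7 in CD25 controls. Of 8 astrocyte markers, 3 were higher and 1 lower with AcP+AcPb, 0 higher and 2 lower with AcPb, and 3 higher and 3 lower with AcP. In AcP neurons Gfap fell by 1.98 ± 0.29, while Slc1a2 averaged 3434.7 in AcP controls against 2172.9 in CD25 controls. The sum of each group of these arms overlapped that of the CD25 group under the same stimulus (17850 to 21589 in the 3 arms, against 15529 to 23471 in CD25 arrays). Of 6 interneuron markers, Dlx1 and Dlx2 were lower and 0 were higher in AcP+AcPb neurons, Dlx2 alone was lower in AcPb neurons, and Dlx1 and Dlx2 were lower and Slc32a1 higher in AcP neurons. Of 8 neuron markers, 0, 0 and 1 were higher and none was lower. Of 4 excitatory neuron markers, 1 was higher in each arm, and with IL-1b 2, 1 and 2 were, where 12.8%, 3.62% and 11.5% of all genes were called. Of 6 vascular and fibroblast markers, 2, 1 and 2 were lower and none was higher. Of 6 oligodendrocyte markers, 0, 1 and 1 were higher and 1, 0 and 0 lower, and of 2 microglia markers 0, 1 and 0 were higher. AcP+AcPb controls had 1 of the 7 progenitor markers at a mean below 0, and no other group had a progenitor, astrocyte, interneuron or neuron marker there.

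Other genes of the potassium pathway, taken from a list of 34 with no Kcn gene, of which 25 were tested, were also compared. Against CD25 unstimulated, 6 were higher and 1 lower with AcP+AcPb, 2 higher and 0 lower with AcPb, and 7 higher and 1 lower with AcP, where 18.7%, 7.62% and 15.5% of all genes were called. With IL-1b there were 5 and 2, 1 and 1, and 7 and 0, where 12.8%, 3.62% and 11.5% of all genes were called. No IL-1b response or response difference was called. Lgi1, a secreted protein that acts on Kv1 channels and is mutated in a human epilepsy, was higher in both arms with AcP. It read 532.5, 635 and 553 with IL-1b and 704, 619 and 568 in controls with AcP+AcPb, 387, 380.3 and 378 with IL-1b and 428, 401 and 435 in controls with AcPb, 625, 664 and 636 with IL-1b and 639.6, 592 and 690.2 in controls with AcP, and 381, 374 and 421 with IL-1b and 418, 378 and 382 in controls with CD25. Its change was 0.66 ± 0.079 with AcP+AcPb and 0.68 ± 0.079 with AcP unstimulated (adjusted p = 2.01e-05 and 1.04e-05), and AcPb against AcP gave -0.58 unstimulated and -0.72 with IL-1b (adjusted p = 0.00105 and 1.75e-05). Cntnap2, which anchors Kv1 channels beside the node, was higher in unstimulated AcP+AcPb (0.345) and AcP neurons (0.28), and so was Slc12a5, the neuronal potassium-chloride exporter (0.26 and 0.27). Nedd4l, a ubiquitin ligase, was higher in all 3 arms (0.31, 0.22 and 0.26 for AcP+AcPb, AcPb and AcP).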

How the data were processed

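RNA of 24 samples was hybridised to 1-colour Affymetrix arrays after biotin labelling, per the labels' protocols, and the deposited files hold 1 intensity per probe set on a linear scale. The sources used here do not give how the authors summarised and scaled them. They ran from -1617.3 to 13068.67, and 16.4% to 18.2% of an array lay below 0. Of 45077 probe sets, 34945 had 1 gene symbol in the platform table, 932 several and 9160 none, and all 84 members matched RefSeq names. Negative values were set to 0, 16 was added and log2 was taken. limma (version 3.58.1, R 4.3.3; lmFit, eBayes) fitted 8 group means on all 24 arrays (16 residual and 1.94 prior degrees of freedom). P-values are two-sided and adjusted within each of 17 comparisons; values after ± are limma standard errors unless called SD. The number of arrays limits the precision. In simulated data of 14215 genes for AcP against CD25, 50 genes each were changed by -0.3, 0.3, 0.5 and 1 log2 unit. Of these, 20%, 28%, 46% and 84% were called. Far fewer genes differed there than were called in the data (2209), which makes the adjusted threshold stricter. These shares are therefore not the power of the comparison in the data.

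Named in the text were up to 10 members called per direction and comparison, the 3 largest changes of each response, the 12 smallest F-test p, 2 members per class with the highest mean, and their channel partners. A few further members were named outside these rules, among them Kcnc1, Kcnq1 and Kcnt1. The members and lists were chosen with earlier results of these data known. Alternatives covered normalization, scaling, the added value, the generalised log, the brightness filter, the probe sets, array weights, the array code, the replicate number, the arrays fitted and leaving out each array. Same-numbered arrays deviated together weakly at most (correlations -0.178 to 0.292 over all arms). Between the IL-1b and control arrays of an arm, these correlations were positive in CD25 (0.063 to 0.239) and AcPb (0.03 to 0.115). They were negative in AcP (-0.121 to -0.018) and mixed in AcP+AcPb (-0.132 to 0.036). Whether numbers pair samples is thus not settled, and the main tests did not pair them.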

Additional observations from a re-analysis of the deposited data

How the results depend on the processing

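The counts of members called between arms depended on the settings, while the absence of calls in the responses mostly did not. With array medians scaled alike, 2 members were called in unstimulated AcPb against CD25 in place of 7, 0 in unstimulated AcPb against AcP in place of 4, 4 in AcPb against CD25 with IL-1b in place of 7 and 6 in AcP+AcPb against CD25 with IL-1b in place of 12. With a filter at the 60th percentile unstimulated AcPb against AcP had 7 calls. The mean of a gene's probe sets gave 1 call in the AcP response (Kcnq1ot1, -0.70, adjusted p = 0.028), 1 in unstimulated AcPb against AcP and 5 in AcPb against AcP with IL-1b in place of 11. Array weights gave 9 in unstimulated AcP against CD25 in place of 15, 14 in unstimulated AcPb against CD25 and 0 in unstimulated AcPb against AcP. The array code as a term marked only the code of AcP+AcPb controls 1 and 2 and pooled the others. Unstimulated AcP+AcPb against CD25 then rested on AcP+AcPb control 3 alone, so no count is given. The code that separates this control from the other arms was not adjusted for. With only the arrays compared in the fit there were 6 and 4 calls in AcP against CD25, unstimulated and with IL-1b, 0 and 6 in AcPb against AcP, and, with IL-1b, 1 in AcPb and 2 in AcP+AcPb against CD25. Single probe sets, an alternative chosen after seeing the data, gave 1 in the AcP response and 2 in unstimulated AcPb against AcP. The cause of these shifts was not tested.

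Leaving out 1 array gave 0 to 1 calls in the AcP response and in the response difference AcP minus CD25, and 17 to 25 in the F-test. Against CD25 it gave, unstimulated, 9 to 14 with AcP+AcPb, 2 to 5 with AcPb and 10 to 19 with AcP, and with IL-1b 6 to 11, 2 to 7 and 8 to 11. AcPb against AcP gave 1 to 3 and 5 to 8, and all other results stayed at 0. The replicate number as a block gave 17, 7 and 17 calls against CD25 unstimulated and 10, 7 and 12 with IL-1b, 3 and 8 in AcPb against AcP, 19 in the F-test and 0 in every response. Of 1568 values of named genes, 1259 kept their direction and side of the threshold, 302 lost a call, 1 gained one and 6 turned. In AcP+AcPb neurons the response of Kcnn4 turned to -0.19 with the mean of probe sets and ran from 0.000 without AcP+AcPb IL-1b array 3 to 0.52 without array 1 or 2, and that of Kcns3 to 0.56 with the array code as a term and ran from -0.796 without AcP+AcPb control 3 to 0.24 without control 2. Kcnd3 in AcP+AcPb against CD25 with IL-1b turned to 0.11 with the mean of probe sets, and the response of Kcnk4 in AcPb neurons ran from -0.674 without AcPb IL-1b array 3 to 0.049 without array 1. Kcnq3 kept its call under every alternative run in AcP+AcPb and AcP against CD25, under both stimuli.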
